A study of Mus musculus with 8 samples.

Results

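The mouse genes numbered from *Zfp600* upwards encode zinc finger proteins, and 181 of the 20665 protein-coding genes on chromosomes 1 to 19 carry such a symbol (Zfp followed by a number of at least 600, with or without a letter). They were picked by symbol, with earlier results of these data known, in the RefSeq gene table of GRCm38.p6, the assembly that mm10 names. For each of them, peaks overlapping the gene or its flanks of 10 kb were read from 8 Cut & Tag peak lists. Cut & Tag uses an antibody on chromatin in permeabilised cells to guide a transposase, which inserts sequencing adapters into the DNA around the bound site. The cells were differentiated mouse brown adipocytes (BAC), made from preadipocytes of *Cars2* flox/flox newborns (interscapular brown fat) and immortalised with the SV40 large T antigen. BAC that received the empty vector (Vec, cell line BAC-V, genotype WT in the labels) were compared with BAC that received Cre recombinase (Cre, cell line BAC-Cre, genotype CarS2-KO), which removes Cars2, the mitochondrial cysteinyl-tRNA ligase, which also forms cysteine persulfide. All libraries therefore come from immortalised cells in culture that went through the same adipogenic induction. There were 2 libraries of each cell type with an antibody against EBF2, a transcription factor of brown adipocytes, and 2 with an antibody against acetylated lysine 27 of histone H3 (H3K27ac), which marks promoters and enhancers in use.

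Most zinc finger genes of this kind code for proteins with a row of C2H2 fingers that read DNA, often joined to a KRAB domain that recruits the corepressor TRIM28 and, through it, enzymes that lay down repressive chromatin. Many of these proteins silence retroviral and other repeated DNA. The genes arose by repeated local duplication, so that many of them stand in arrays of related copies.

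The lists held between 533 and 902 peaks each. Since reads are not counted in them, library depth is not known. A measure of depth, the background coverage that the peak caller assumed, could be recovered from the fold and p-value of each peak. It was 7.38, 8.26 and 8.76 in EBF2 Vec replicate 1, Cre replicate 1 and Cre replicate 2, but 1.39 in EBF2 Vec replicate 2, which also had the fewest peaks. In the H3K27ac lists it was 18.8 in Vec replicate 1, and 9.41, 9.65 and 9.9 in Vec replicate 2, Cre replicate 1 and Cre replicate 2. These are approximate, because the values of broad peaks are means over a region. H3K27ac Vec replicate 1 also held the most zinc finger genes, 33. In EBF2 Cre replicate 1 the name given to each peak includes Cars2AKO, a term the study uses for a knockout mouse. Its label was followed, and results are also given without it and without EBF2 Vec replicate 2. The labels do not say whether replicates were separate cultures, so the spread between libraries may be technical. Of 12 fixed marker genes of brown adipocytes, among them Ucp1, Adipoq and Pparg, 0 had a peak within 10 kb in any list. All protein-coding genes gave 7.72%, a share against which so short a list says little. The paper describes EBF2 Cut & Tag binding at Ucp1 in such cells, which these lists do not hold within 10 kb. The markers therefore give no sign that the lists cover active genes of these cells, and the reason was not tested.

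The sequences before the genes are shown first, because close copies recur through all results. On chromosome 2, *Zfp966*, *Zfp967*, *Zfp970* and *Zfp971* are members of an array that carried peaks in nearly all lists. The 250 bases before each gene (GRCm38.p6, RefSeq, 5′ to 3′ along the gene) lie at chr2:175931101-175931350 on the minus strand for *Zfp966*, and on the plus strand at chr2:176520754-176521003 for *Zfp967*, chr2:177464492-177464741 for *Zfp970* and chr2:178023034-178023283 for *Zfp971*. Capitals mark bases that differ from *Zfp966* or have no partner in it after alignment. The sequence of *Zfp967* has 250 of 250 bases identical to *Zfp966*, that of *Zfp970* has 243 identical bases, 2 mismatches and 10 gap positions, and that of *Zfp971* has 230 identical bases, 6 mismatches and 28 gap positions.
Zfp966: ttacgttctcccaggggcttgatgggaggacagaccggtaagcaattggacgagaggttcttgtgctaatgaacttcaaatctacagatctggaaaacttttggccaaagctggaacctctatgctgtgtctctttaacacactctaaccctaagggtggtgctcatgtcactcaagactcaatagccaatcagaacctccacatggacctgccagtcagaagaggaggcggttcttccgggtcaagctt
Zfp967: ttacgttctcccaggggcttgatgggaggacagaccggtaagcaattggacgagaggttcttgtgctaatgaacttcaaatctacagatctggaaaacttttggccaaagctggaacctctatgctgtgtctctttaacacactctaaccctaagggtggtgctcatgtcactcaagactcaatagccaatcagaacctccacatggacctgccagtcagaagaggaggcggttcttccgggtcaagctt
Zfp970: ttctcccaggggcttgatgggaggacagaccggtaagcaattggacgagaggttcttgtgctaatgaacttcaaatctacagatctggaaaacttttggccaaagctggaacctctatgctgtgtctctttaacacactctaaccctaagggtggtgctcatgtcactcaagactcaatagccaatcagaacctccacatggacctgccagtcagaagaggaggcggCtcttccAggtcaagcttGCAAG
Zfp971: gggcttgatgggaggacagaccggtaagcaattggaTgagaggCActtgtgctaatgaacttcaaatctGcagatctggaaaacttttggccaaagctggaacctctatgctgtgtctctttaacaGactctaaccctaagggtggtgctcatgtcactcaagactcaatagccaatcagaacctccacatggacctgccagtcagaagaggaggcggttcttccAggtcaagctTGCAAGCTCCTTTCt

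On chromosome 4 the same holds for a pair in which 1 gene had a peak in all 8 lists and the other in 0. *Zfp980* (chr4:145670447-145670696, plus strand) was within the covered stretch in each list, whereas *Zfp979* (chr4:147642509-147642758, minus strand) was between 178 and 302 kb from the nearest peak. Of the 250 bases before each gene, 227 are identical, with 18 mismatches and 10 gap positions. Capitals mark the bases of *Zfp979* that differ from *Zfp980* or have no partner in it.
Zfp980: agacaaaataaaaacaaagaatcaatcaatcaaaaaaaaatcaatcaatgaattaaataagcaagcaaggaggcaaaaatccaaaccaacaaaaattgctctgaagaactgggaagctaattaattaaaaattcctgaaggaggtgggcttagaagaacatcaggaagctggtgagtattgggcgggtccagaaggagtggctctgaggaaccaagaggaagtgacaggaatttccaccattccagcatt
Zfp979: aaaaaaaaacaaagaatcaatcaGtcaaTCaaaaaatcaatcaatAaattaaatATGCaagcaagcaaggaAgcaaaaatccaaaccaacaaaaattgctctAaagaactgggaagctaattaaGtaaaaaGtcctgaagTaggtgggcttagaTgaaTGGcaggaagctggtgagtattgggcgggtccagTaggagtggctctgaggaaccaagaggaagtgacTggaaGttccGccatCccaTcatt

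A different group had short H3K27ac peaks of about 1 kb over the start site. The bases before 4 of these genes are given with each CpG in capitals: *Zfp932* (chr5:109996260-109996501, plus strand, 242 bases), *Zfp943* (chr17:21962504-21962558, plus strand), *Zfp935* (chr13:62466853-62467062, minus strand, 210 bases) and *Zfp949* (chr9:88547770-88548019, plus strand). For *Zfp943* only 55 bases are shown, since they are all that separates it from *Zfp942*, which runs the other way.
Zfp932: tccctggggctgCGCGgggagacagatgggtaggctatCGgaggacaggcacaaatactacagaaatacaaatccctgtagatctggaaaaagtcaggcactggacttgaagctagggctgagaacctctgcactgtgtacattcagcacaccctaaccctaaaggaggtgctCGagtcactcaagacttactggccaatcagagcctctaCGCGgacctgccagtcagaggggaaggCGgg
Zfp943: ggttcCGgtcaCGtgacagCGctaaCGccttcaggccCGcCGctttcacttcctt
Zfp935: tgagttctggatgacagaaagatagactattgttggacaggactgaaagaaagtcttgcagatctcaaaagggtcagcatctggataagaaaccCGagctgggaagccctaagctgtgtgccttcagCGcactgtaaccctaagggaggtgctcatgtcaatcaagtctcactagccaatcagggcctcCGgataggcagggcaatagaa
Zfp949: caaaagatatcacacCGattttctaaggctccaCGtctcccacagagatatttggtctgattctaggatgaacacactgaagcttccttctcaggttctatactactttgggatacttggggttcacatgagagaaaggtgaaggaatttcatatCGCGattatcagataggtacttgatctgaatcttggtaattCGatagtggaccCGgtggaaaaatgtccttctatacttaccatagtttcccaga

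At the genes and their 10 kb flanks, a peak was found for 38 of the 181 zinc finger genes (21%) in at least 1 list, against 7.72% of all protein-coding genes. In H3K27ac Vec the replicates held 33 genes (18.2%) and 29 genes (16.0%), where the shares of all protein-coding genes were 5.79% and 4.53%. In H3K27ac Cre they held 26 genes (14.4%) and 31 genes (17.1%), against 4.77% and 6.2% of all genes. The shares of the zinc finger genes were thus above those of all genes in each of these lists.

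With EBF2 the numbers were lower. In Vec the replicates held 21 genes (11.6%) and 18 genes (9.94%), where all protein-coding genes gave 4.04% and 3.09%. In Cre they held 22 genes (12.2%) and 21 genes (11.6%), where all genes gave 4.06% and 3.91%. The share of the zinc finger genes was between 2.76 and 3.53 times that of all genes over the 8 lists. The 205 zinc finger genes with a number below 600 did not share this: they gave 3 to 14 genes per list, or 1.46% to 6.83%. These shares are descriptions, since neighbouring genes often lie under the same peak. In H3K27ac Vec replicate 1, for example, the 33 genes were reached by 15 distinct peaks, and in EBF2 Vec replicate 1 the 21 genes were reached by 9.

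**Figure D1:**
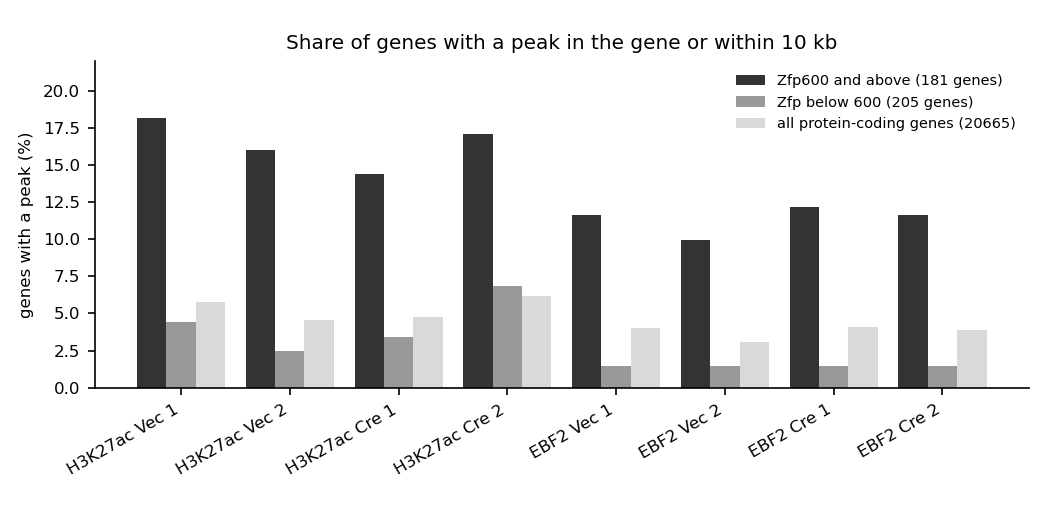
Share of genes reached by a peak, flanks of 10 kb included (y axis, percent) in each of the 8 lists (x axis). Dark bars are the 181 zinc finger genes, grey bars the 205 with a number below 600 and light bars all 20665 protein-coding genes of chromosomes 1 to 19. The dark bars range from 9.94% to 18.2% and stand above the other bars in each list.

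Of the 38 genes, 18 had a peak in all 8 lists (9.94% of the 181, against 2.87% of all protein-coding genes), 20 had one in 1 to 7 lists, and 6 of these in a single list. All 38 had an H3K27ac peak in at least 1 list, and 23 also had an EBF2 peak. The other 15 had H3K27ac peaks only (8.29% of the 181, against 3.18% of all protein-coding genes), and 0 had EBF2 peaks only (0.179% of all genes). Among all 1596 protein-coding genes with a peak in any list, 657 had H3K27ac peaks only, a description with no test of the difference. The remaining 143 genes had no peak within 10 kb, and their nearest peak in any list was at a median distance of 330.0 kb and at least 14 kb away.

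**Figure D2:**
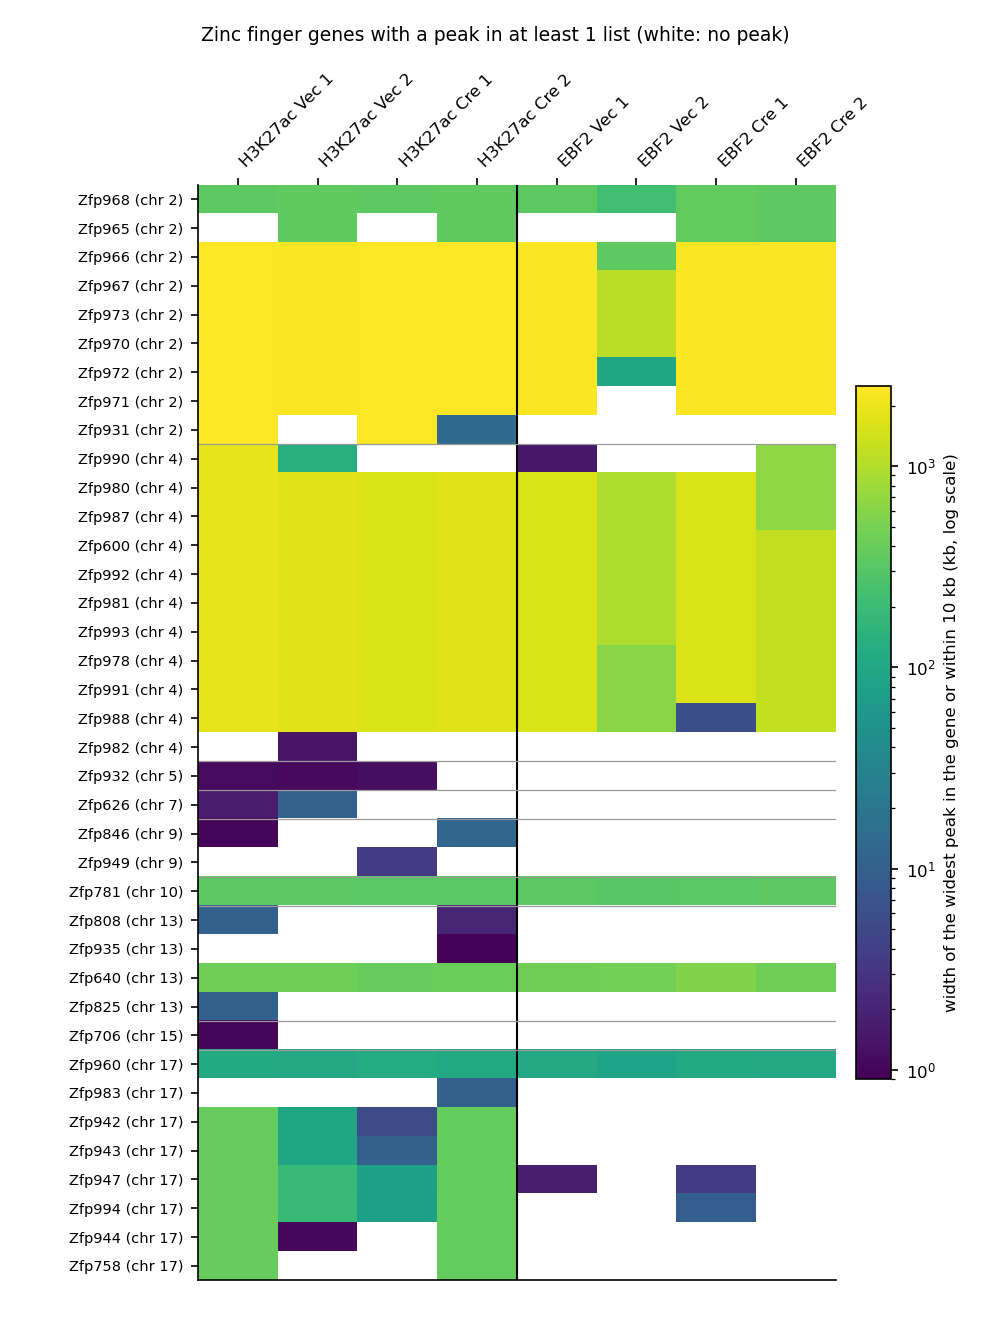
The 38 zinc finger genes with a peak in at least 1 list (rows, in genome order with the chromosome) by list (columns). Colour gives the width of the widest peak that reaches the gene or its 10 kb flanks, in kb on a log scale, and white means no peak. The blocks on chromosomes 2 and 4 have peaks over 1 Mb wide in most lists, whereas the genes on chromosomes 5, 7, 9 and 15 have short H3K27ac peaks, the widest of 12389 bp at Zfp846, and no EBF2 peak.

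The genes with peaks were unevenly spread over the genome. The 181 genes lie on all 19 chromosomes and form 26 clusters of 2 or more genes, joined where the gap is at most 500 kb, with 55 genes on their own. A peak in any list was found for 33 of the 126 clustered genes (26.2%) and for 5 of the 55 single genes (9.09%). Chromosome 7 holds 39 of the genes, of which 1 had a peak, and chromosome 8 holds 16, of which 0 had one. In 16 clusters with 63 genes no list had a peak.

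Of the 38 genes with a peak, 27 stood in 3 arrays, on chromosomes 2, 4 and 17, which hold 38 genes in all (71.1% with a peak). These 3 were singled out because they hold the most genes with a peak, so the share inside them is set by that choice. The array on chromosome 2 spans 3 of the clusters above, with 3, 2 and 4 genes, joined here because long peaks run across the gaps between them. Elsewhere, 11 of 143 genes had a peak.

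The chromosome 2 array runs from *Zfp968* to *Zfp931* (chr2:175372034-178078425, 2.71 Mb) and holds 9 of the genes. Peaks covered 93.8% and 93.1% of it in H3K27ac Vec, 94.3% and 94.4% in H3K27ac Cre, 92.1% and 67.8% in EBF2 Vec, and 93.5% and 92.9% in EBF2 Cre. The 67.8% belongs to EBF2 Vec replicate 2, the library with low background coverage, and the other 7 lists lay within 92.1% to 94.4%. In those 7 lists a single peak of 2.41 to 2.47 Mb held most of the array. In EBF2 Vec replicate 2 there were 10 peaks, the widest of 1.10 Mb.

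*Zfp968*, *Zfp966*, *Zfp967*, *Zfp973*, *Zfp970* and *Zfp972* had 100% of their length under peaks in each of the 8 lists. The fold of the peak over *Zfp967*, the coverage divided by the caller's background, was 8.82 and 8.45 in H3K27ac Vec, 10.3 and 9.56 in H3K27ac Cre, 19.5 and 9.22 in EBF2 Vec, and 22.6 and 22.6 in EBF2 Cre. EBF2 Vec replicate 2 was again the low value, and without it the EBF2 folds lay within 19.5 to 22.6. Folds of EBF2 and H3K27ac lists are on different footings and are not compared, since those of H3K27ac are means over the region. The median fold over all peaks of a list was 1.73 to 2.05 for H3K27ac and 2.31 to 3.35 for EBF2.

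The edges of the stretch differed somewhat between lists. The first piece, over *Zfp968*, ended 0.0696 to 0.111 Mb after the start of the array, and the next piece started at 0.233 Mb in 5 lists, at 0.237 Mb in 2 EBF2 lists and at 0.256 Mb in EBF2 Vec replicate 2. The gap between them was 122 to 175 kb. *Zfp965* stands at the rim of this gap. It had a peak in H3K27ac Vec replicate 2, H3K27ac Cre replicate 2 and both EBF2 Cre lists, and in the other 4 lists the nearest peak was 14.5 to 28.4 kb away. At the far end, *Zfp971* had a peak in 7 lists (not in EBF2 Vec replicate 2) and *Zfp931* in 3 H3K27ac lists. The 17 other protein-coding genes in the span, 16 of them predicted genes with Gm symbols, all had a peak in at least 1 list, and 16 had one in all 8.

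The chromosome 4 array, from *Zfp990* to *Zfp933* (chr4:145510759-147849126, 2.34 Mb), holds 15 of the genes. Peaks covered 79.2% and 79.9% of it in H3K27ac Vec, 71.4% and 73.9% in H3K27ac Cre, 71.9% and 68.2% in EBF2 Vec, and 71.2% and 79.9% in EBF2 Cre. The H3K27ac values of Vec and Cre did not overlap, while those of EBF2 did. An exact permutation test of 2 libraries against 2 cannot give a p below 0.333.

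In this array 9 genes had a peak in all 8 lists: *Zfp980*, *Zfp987*, *Zfp600*, *Zfp992*, *Zfp981*, *Zfp993*, *Zfp978*, *Zfp991* and *Zfp988*. The stretch covered in all 8 lists in the gene and its 10 kb flanks was 401 kb for *Zfp993* and 178 kb for *Zfp978*, whose annotated spans are long and overlap those of their neighbours, 68.5 kb for *Zfp991* and 60.2 kb for *Zfp600*. The fold of the widest peak in the array was 8.95 and 10.6 in H3K27ac Vec, 7.84 and 8.69 in H3K27ac Cre, 30.7 and 23.5 in EBF2 Vec, and 23.4 and 22.2 in EBF2 Cre. Both Vec values were above both Cre values for either antibody, but the nearest pairs, 8.95 and 8.69 for H3K27ac and 23.5 and 23.4 for EBF2, nearly met. The widest peaks also do not span the same bases. With EBF2 they were 1.66 and 0.974 Mb wide in Vec and 1.64 and 1.19 Mb in Cre. At *Zfp967* in the chromosome 2 array the order was the opposite for both antibodies, with Cre above Vec.

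The last peak wider than 10 kb on chromosome 4 ended 1.77 to 1.88 Mb into the array in all 8 lists, within the annotated span of *Zfp978*. Beyond that edge lay *Zfp982*, which had 1 short peak 9409 bp away in H3K27ac Vec replicate 2, and *Zfp984*, *Zfp985*, *Zfp979* and *Zfp933*, which had none. At the near edge stood *Zfp990*. Its peak was 1.85 Mb wide in H3K27ac Vec replicate 1 and 131 kb wide in Vec replicate 2, with the nearest peak 31.9 and 33.4 kb away in H3K27ac Cre replicates 1 and 2. With EBF2 it had a peak in Vec replicate 1 and in Cre replicate 2, so that only H3K27ac divided by cell type.

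**Figure D3:**
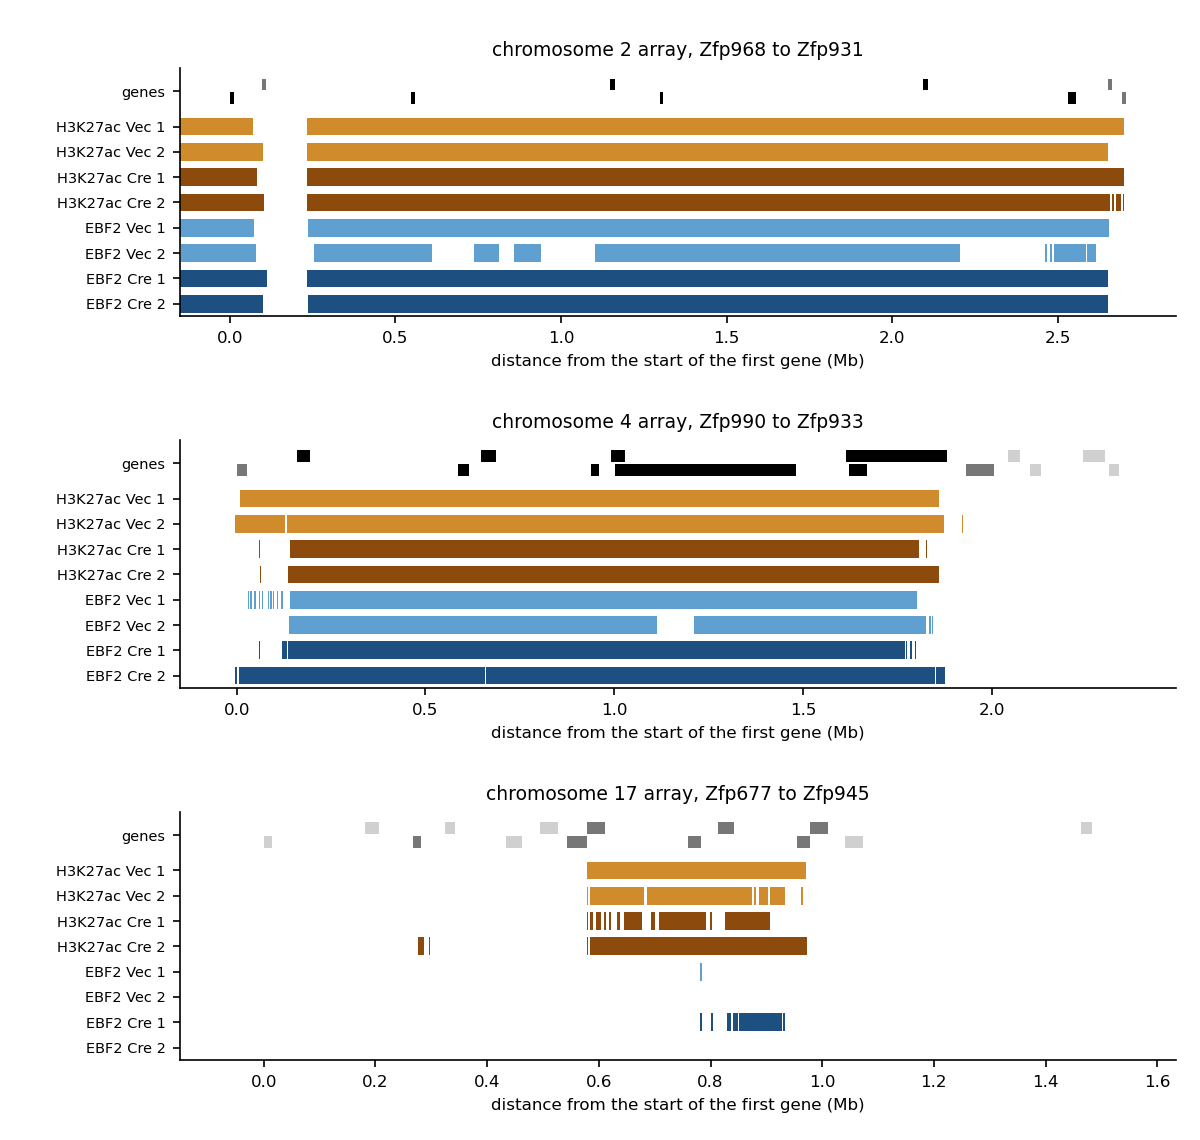
Peaks of the 8 lists (rows) along the arrays of chromosomes 2, 4 and 17, with distance from the start of the first gene in Mb on the x axis. Boxes above each panel are the zinc finger genes: black with a peak in all 8 lists, dark grey in 1 to 7, light grey in 0. On chromosomes 2 and 4 all 8 lists have long peaks, and on chromosome 4 they start in or just before *Zfp990* in 3 lists and beyond it in the others, while on chromosome 17 peaks cover 15.7% to 27.1% of the array in the H3K27ac lists and 0.0% to 6.71% in the EBF2 lists.

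The chromosome 17 array differed from these. It runs from *Zfp677* to *Zfp945* (chr17:21383707-22867309, 1.48 Mb) and holds 14 of the genes. H3K27ac peaks covered 26.5% and 22.3% of it in Vec and 15.7% and 27.1% in Cre, with 6, 5, 4 and 7 genes reached. EBF2 peaks covered 0.119% in Vec replicate 1 and 6.71% in Cre replicate 1, reaching 1 and 2 genes, and 0.0% in both second replicates. The highest H3K27ac fold in this array was 2.09 to 2.88, beside a median over all peaks of 1.73 to 2.05 in those lists.

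*Zfp942* and *Zfp943* stand head to head, 55 bp apart, and were the 2 genes with a peak in all 4 H3K27ac lists and no EBF2 list (1.1% of the 181 genes, against 0.135% of all protein-coding genes). The opposite pattern, all 4 EBF2 lists and no H3K27ac list, was found for 0 of the genes (0.00968% of all genes). The H3K27ac peak over the gap between them reached 440, 499, 368 and 386 bp into *Zfp942* in Vec 1, Vec 2, Cre 1 and Cre 2. Its width was 1257, 1162 and 1258 bp in the last 3 of these, whereas in Vec 1 it was the left end of a 393 kb peak. A peak thus lay over the shared start region in all 4 H3K27ac lists, and in the last 3 it was separate from the peaks that followed.

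*Zfp947* and *Zfp994* lie further along this array and had H3K27ac peaks in all 4 lists. *Zfp947* was under peaks over 100% of its length in each, with widths of 393 and 187 kb in Vec and 84.6 and 389 kb in Cre. It was also the gene of this array with EBF2 peaks in both cell types, of 1772 bp in Vec replicate 1 (fold 2.63) and 3686 bp in Cre replicate 1 (fold 3.24). Both EBF2 peaks lay over its start site. In the second EBF2 replicates its nearest peak was 837 kb (Vec) and 819 kb (Cre) away.

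Outside the arrays, 3 genes had a peak in all 8 lists. *Zfp781* on chromosome 10 lay under a peak of 335, 334, 333 and 332 kb in the H3K27ac lists of Vec 1, Vec 2, Cre 1 and Cre 2, and of 334, 319, 333 and 334 kb in the EBF2 lists in the same order. Its folds were the highest of these 3 genes, at 21.5 to 24.7 for H3K27ac and 22.6 to 45.2 for EBF2. Its promoter is 100% identical to that of the gene Gm3055, so reads there may not be placed with certainty, which was not tested. *Zfp640* on chromosome 13 lay under peaks of 391 to 439 kb with H3K27ac (fold 3.19 to 3.65) and of 431 to 555 kb with EBF2 (fold 5.53 to 7.04). *Zfp960* on chromosome 17 was reached by peaks of 109 to 117 kb with H3K27ac and of 89.2 to 110 kb with EBF2, the lowest being EBF2 Vec replicate 2, where the peak stopped 0.904 kb short of the gene. The width varied least for *Zfp781*, and the widest peak of *Zfp640* was that of EBF2 Cre replicate 1.

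Peaks of 10 kb or less reached only part of the genes with a peak, 19 in at least 1 list. Taking only these peaks, 5 and 5 genes in H3K27ac Vec and 6 and 7 in H3K27ac Cre had one. With EBF2 it was 2 and 2 in Vec and 4 and 1 in Cre, and no gene had one in all 8 lists. In the same order, these were 2.76% and 2.76%, 3.31% and 3.87%, 1.1% and 1.1%, and 2.21% and 0.552% of the 181 genes. All protein-coding genes gave 1.83% and 0.716%, 0.857% and 2.32%, 0.595% and 0.368%, and 0.479% and 0.406%. The genes with such a peak in 2 or more lists were *Zfp990*, *Zfp978*, *Zfp988*, *Zfp932*, *Zfp846*, *Zfp942*, *Zfp943* and *Zfp947*. Of these, *Zfp978*, *Zfp988* and *Zfp990* lie at the edges of the chromosome 4 stretch.

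Over an annotated start site, short H3K27ac peaks were found for 3 and 3 of 158 genes in Vec and 4 and 5 in Cre. These shares of 1.9% to 3.16% stood beside 0.231% to 1.27% of the 16457 protein-coding genes with an annotated start site. Short EBF2 peaks over a start site were found for 1 and 0 genes in Vec and 2 and 0 in Cre, and were those of *Zfp947* and *Zfp994*, where 0.0425% to 0.128% of all such genes had one. The start sites with H3K27ac belonged to 8 genes, of which *Zfp932*, *Zfp846*, *Zfp942* and *Zfp943* had the peak in more than 1 list.

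*Zfp932*, a KRAB zinc finger gene whose protein represses endogenous retroviruses, had such a peak in 3 lists. It was 1120 and 1103 bp wide in H3K27ac Vec and 1215 bp in Cre replicate 1, with folds of 1.94, 2.24 and 2.24, and its outermost ends lay at -313 bp and 965 bp from the first of 2 annotated start sites. In Cre replicate 2 the nearest peak was 72.2 kb away. *Zfp846* had a peak over its start site of 984 bp in Vec replicate 1 and 1498 bp in Cre replicate 2. *Zfp949* had one in Cre replicate 1, *Zfp935* in Cre replicate 2 and *Zfp825* in Vec replicate 1. *Zfp808* had one of 2060 bp in Cre replicate 2, and in Vec replicate 1 a peak of 10282 bp, just over the limit, lay over the same start site. None of these 4 genes separated Vec from Cre.

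**Figure D4:**
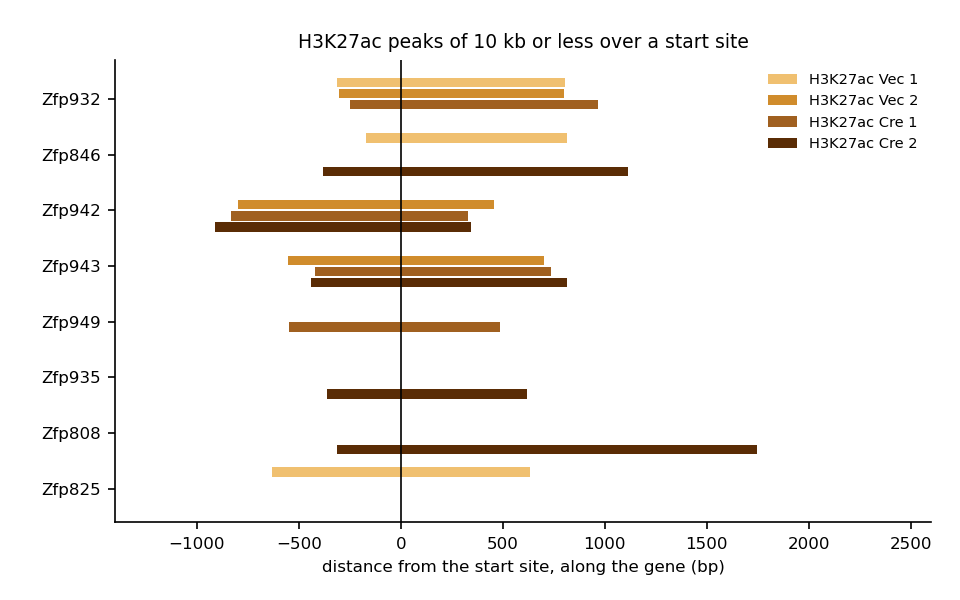
H3K27ac peaks of 10 kb or less that lie over the start site of a zinc finger gene (rows), with distance from the start site along the gene in bp on the x axis and 1 bar per list. The bars of Zfp932 in 3 lists nearly coincide, with outermost ends at -313 bp and 965 bp, and Zfp942 and Zfp943 share their peaks.

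To ask whether loss of Cars2 changed EBF2 at these genes, the lists of Vec and Cre were compared. The number of genes with an EBF2 peak was 19.5 ± 2.12 in Vec and 21.5 ± 0.707 in Cre (mean ± SD, n = 2 each), a difference of 2.0 that did not exceed the spread (p = 0.667, exact permutation test, two-sided, where 2 against 2 cannot give less than 0.333). Over all protein-coding genes the share was 3.56% in Vec and 3.99% in Cre, a difference of 0.423 percentage points in the same direction. The difference was 3.5 and 0.5 without EBF2 Vec replicates 1 and 2, and 1.5 and 2.5 without EBF2 Cre replicates 1 and 2. Genes with a peak in the 2 Vec lists but in no Cre list numbered 0 (0.0484% of all protein-coding genes), and those with one in the 2 Cre lists but in no Vec list numbered 1 (0.552%, against 0.0968% of all genes). This was *Zfp965*, at the rim of the chromosome 2 stretch, whose peaks in Cre were 367 and 352 kb wide with folds of 11.9 and 11.5. In Vec the same stretch ended 23.2 and 17.1 kb from the gene, so that the call turned on where a long peak ended. The promoter of *Zfp965* is 97% identical to that of *Zfp971*, so reads there may not be placed with certainty, which was not tested. Without EBF2 Vec replicate 1, or without EBF2 Cre replicate 2, 2 genes were found in Cre but not in Vec. One cell type then has a single list, which makes the rule looser, so this count could only stay or rise. The share of all genes under that rule was not worked out.

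H3K27ac gave a like picture. The number of genes with a peak was 31.0 ± 2.83 in Vec and 28.5 ± 3.54 in Cre (n = 2 each), lower by 2.5 in Cre, within the spread (p = 0.667, exact permutation test, two-sided, smallest possible 0.333). Over all protein-coding genes the share went the other way, from 5.16% in Vec to 5.49% in Cre, also within the spread. The direction turned with the processing: the difference was 1.0 in favour of Cre with a window of 50 kb, 1.5 in favour of Cre with peaks of 10 kb or less, and 0.0 without Cre replicate 1. Without Vec replicates 1 and 2 it was -0.5 and -4.5, and without Cre replicate 2 it was -5.0. The genes found in the 2 Vec lists but in no Cre list were *Zfp626* and *Zfp990* (1.1%, against 0.165% of all genes), and those found the other way round numbered 0 (0.106% of all genes). Leaving out a library gave 3 lost and 1 gained without Vec replicate 1, 4 and 0 without Vec replicate 2, 3 and 2 without Cre replicate 1, and 3 and 1 without Cre replicate 2. With a single list left in a cell type the rule is looser, so these counts could only stay or rise. Shares of all genes were not worked out for them. *Zfp626*, the only one of the 39 zinc finger genes on chromosome 7 with a peak, had H3K27ac peaks of 1674 and 10860 bp in Vec with scores of 16 and 14, and its nearest peak in the Cre lists was 1660 kb away. With peaks at or above the median score of the H3K27ac lists, which is 27, 0 of the genes remained lost.

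Between the antibodies the difference was larger than the spread. The lists were not cut alike, since the lowest −log10 q was 1.04 to 1.1 in H3K27ac lists and 1.3 to 1.6 in EBF2 lists. The looser cut thus went with the larger count, and its part in the difference was not tested. H3K27ac lists held 29.75 ± 2.99 of the genes and EBF2 lists 20.5 ± 1.73 (n = 4 each), a difference of 9.25 with no overlap between the lists of the antibodies (p = 0.0286, exact permutation test, two-sided, the smallest that 4 against 4 can give). All protein-coding genes moved the same way, from 3.77% ± 0.463 with EBF2 to 5.32% ± 0.801 with H3K27ac (p = 0.0286, same exact permutation test). The ratio of the share of the zinc finger genes to that of all genes was 3.01 ± 0.148 with EBF2 and 3.11 ± 0.322 with H3K27ac (p = 0.629, exact permutation test). The larger number with H3K27ac was therefore not particular to these genes. In the chromosome 17 array alone, 4 to 7 genes per H3K27ac list and 0 to 2 per EBF2 list had a peak.

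The genes were also compared by how close a copy of their promoter another gene holds. RefSeq gives a promoter of 300 bases for 158 of the 181 genes. Of these, 31 have a promoter at least 90% identical to that of another gene, and 21 of the 31 (67.7%) had a peak in at least 1 list and 11 in all 8. Of the 127 without such a copy, 11 (8.66%) had a peak in any list and 3 in all 8. This is a description, since the genes of an array share both their ancestry and their peaks. Within the 3 arrays, 18 of 20 genes with a close copy and 5 of 14 without one had a peak, and elsewhere 3 of 11 and 6 of 113.

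The closest copy of each of the 31 genes was on the same chromosome as the gene. *Zfp966* and *Zfp967* were 100% identical, *Zfp968* and *Zfp973* 99.7%, *Zfp965* and *Zfp971* 97%, and *Zfp600* and the neighbouring gene Rex2 99.7%. Exceptions ran both ways. *Zfp955a* and *Zfp955b* on chromosome 17 were 100% identical and had no peak within 10 kb. *Zfp979* was 96.7% identical to *Zfp600* and had none either. In contrast, *Zfp932*, 88% at best, had H3K27ac peaks, and *Zfp972* and *Zfp993*, for which no copy was found, had a peak in all 8 lists. Reads from close copies may not be placed with certainty. How the authors treated reads with several matches is not given in the sources used here. The values of all genes with a close copy are therefore uncertain. Among them are *Zfp966*, *Zfp967*, *Zfp968*, *Zfp973*, *Zfp600*, *Zfp970* (97.7%), *Zfp965* and *Zfp971* (97%), *Zfp781* (100%, to Gm3055) and *Zfp640* (95.7%, to Gm17353). The part of this uncertainty in the result was not tested.

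**Figure D5:**
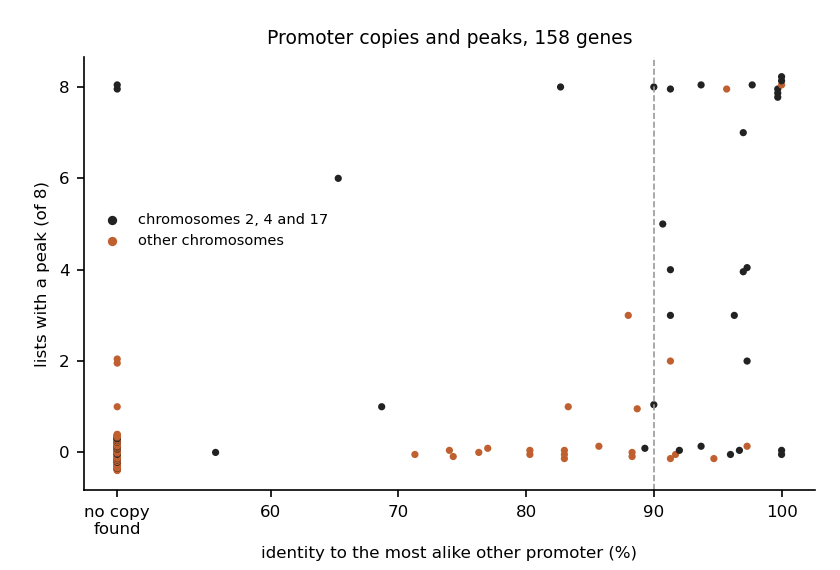
Number of lists with a peak (y axis, of 8) against the identity of each gene's promoter to the most alike promoter of another gene (x axis, percent) for 158 zinc finger genes, with genes without a copy at the left and points spread slightly upwards and downwards. On or right of the dashed line at 90%, 21 of 31 genes have a peak in at least 1 list, and to the left of it 11 of 127.

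The promoters were also compared by base content and motifs. The median number of CpG was 4.5 (3 to 10) in the 14 genes with a promoter and a peak in all 8 lists, 9 (6 to 21) in the 8 with a short H3K27ac peak over the start site, and 13 in the 126 with no peak. The letters CCAATCAG, a CCAAT box with its flank, searched on both strands after they had been seen in the sequences above, were in 36 of 158 promoters (22.8%), against 4.7% of the 27025 genes with a promoter in the RefSeq table. They were in 7 of the 14 genes with a peak in all 8 lists (50%), in 6 of the 18 with one in 1 to 7 lists (33.3%) and in 23 of the 126 with none (18.3%). All 9 genes of the chromosome 2 array held them, but the letters were picked from the printed sequences, which include that array. Most of its promoters are copies of each other, though no copy was found for that of *Zfp972*. The array supplied 6 of the 7 genes with the letters and a peak in all 8 lists. It also supplied *Zfp965*, *Zfp971* and *Zfp931* among the 6 with one in 1 to 7 lists. *Zfp932* and *Zfp935*, also among these 6, hold the letters in the sequences printed above. The 50% and 33.3% thus rest in large part on the array and the printed sequences that gave the letters. The EBF motif, TCCC and GGGA with any 2 bases between, which reads the same on both strands, was in 1 of 158 (0.633%), against 1.06% of all genes, and was in none of the 18 genes with both an EBF2 peak and a promoter in the table. A match here describes letters, not binding.

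Members looked up whatever their values were mostly far from peaks. *Zfp809*, whose protein recruits TRIM28 to retroviral DNA, had its nearest peak 468 kb away in the closest list. For *Zfp653*, a corepressor of nuclear receptors, it was 651 kb, for *Zfp672* 2240 kb, for *Zfp870* 280 kb, for *Zfp961* 72.9 kb and for *Zfp938* 227 kb. *Zfp600* and *Zfp992*, in the chromosome 4 array, had a peak over the gene in all 8 lists. The partners of KRAB zinc finger proteins, a list of 20 genes with Trim28, Setdb1, Cbx1, Cbx3, Cbx5 and Dnmt1 among them, had 0 with a peak within 10 kb in any list, beside 7.72% of all protein-coding genes, a share at which a list of this length says little.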

How the data were processed

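EBF2 and H3K27ac Cut & Tag was read from 8 peak lists, 1 per library, deposited by the authors. The submitters' processing notes name bcl2fastq 2.17, Trimmomatic 0.33, HISAT2 2.2.1 and MACS2 2.2.7 with mm10. The q-value threshold, any control library and the treatment of duplicate and multiply matching reads are not given in the sources used here. In the deposited lists the score is a truncated whole number, 10 × −log10 q. The fold deposited with each peak is a ratio of coverage to the caller's background. The authors' lists further give −log10 p and −log10 q. Lists of EBF2 are in the narrow layout and those of H3K27ac in the broad layout, where values are means over a region. Groups were taken from the labels.

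The zinc finger genes, other gene lists and tests were chosen with earlier results of these data known. A gene was called where a peak overlapped it, or its flanks of 10 kb, by at least 1 bp. Genes on a chromosome were joined into a cluster over gaps of at most 500 kb. Numbers of genes per library were compared by exact permutation tests, two-sided, with a threshold of 0.05. Genes were named if in both lists of 1 cell type and neither of the other, if they had a peak of 10 kb or less in 2 or more lists, if in all 8 lists (the 12 with the longest covered length), if in all 4 lists of 1 antibody and none of the other, or if looked up. The other 6 genes in all 8 lists, genes at the edges of the arrays, the pairs of promoter copies and genes with a short peak in a single list were named after their values were seen.

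Background coverage was found from fold and p-value as the whole number of overlapping fragments that gives both, for peaks with a −log10 p-value under 15, taking the 10th percentile. All such EBF2 peaks gave a match, and 10.4% to 13.8% of the H3K27ac peaks. Promoters of 250 bases before to 50 after a start site were from RefSeq (GRCm38.p6), with 23 of the 181 genes not in the table, and were aligned globally if they shared at least 15 stretches of 20 bases. Alternatives were a 50 kb window, 3 kb around the gene ends, peaks at or above the median score (29 for EBF2, 27 for H3K27ac), at least 50% of the gene covered, peaks of 10 kb or less, equal numbers of best-scoring peaks (533 and 646), a replicate block, leaving out each library, and cluster gaps of 100 kb and 1 Mb. The overlap code was tested on simulated peaks. Python 3.11.15, pandas 2.3.3, numpy 2.4.6, scipy 1.17.1, Biopython 1.88 and matplotlib 3.10.9 were used.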

Additional observations from a re-analysis of the deposited data

How the results depend on the processing

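The difference between H3K27ac and EBF2 kept its direction under every alternative, at 3.5 to 11.5 genes with all libraries (p = 0.0286, exact permutation test) and 8.17 to 10.5 with a library left out, where 3 against 4 cannot give less than the observed p of 0.0571. The genes with a peak in all 8 lists fell from 18 to 0 with peaks of 10 kb or less. They were 16 to 22 under the other settings and 18 to 19 with a library left out. The H3K27ac difference of Cre and Vec was -2.5 but 1.0 with a window of 50 kb and 1.5 with short peaks, and was -5.0 to 0.0 with a library left out. The EBF2 difference stayed at 0.5 to 3.5. A replicate block, with 2 pairs, gave 2.0 for EBF2 (p = 0.5) and -2.5 for H3K27ac (p = 1.0, exact permutation of signs). With 2 pairs it cannot give a p below 0.5, so it could change no call. The numbers are not stated to pair libraries.

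Genes gained with EBF2 in Cre went from 1 to 0 with a window of 50 kb, with 50% of the gene covered and with short peaks, and were 1 to 2 with a library left out. Genes lost with H3K27ac went from 2 to 1 with a window of 50 kb and with 50% of the gene covered, to 0 with the stricter score and with short peaks, and were 3 to 4 with a library left out. Those gained with H3K27ac were 0 to 2 with a library left out. Leaving out a library loosens the rule for gained and lost genes, so those counts could only stay or rise. The causes of the other changes were not tested. Clusters numbered 26, or 31 and 23 with gaps of 100 kb and 1 Mb. Depth is known only as background coverage, which was lowest in EBF2 Vec replicate 2 and highest in H3K27ac Vec replicate 1.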
